A study of Mus musculus with 8 samples.

Results

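The IL-4 response of peritoneal macrophages that lack the Fc receptor gamma chain (KO) was measured on 4 of the 8 arrays of a study of mouse cells. All arrays whose titles name both the knockout and a condition were taken, 2 given interleukin-4 (IL-4) and 2 left unstimulated. Every gene measured was compared between them, 9847 genes in all, of which 9289 exceeded background on each array of 1 or both KO groups. Groups are given here as KO with IL-4, KO unstimulated, wild type (WT) with IL-4 and WT unstimulated, each with 2 arrays. All 4 groups were C57BL/6 cells washed out of the peritoneum of untreated mice and plated overnight in RPMI medium with 10% fetal serum and 15% supernatant of L929 cells, which supplies M-CSF, a growth factor of macrophages. Floating cells were then removed, and the cells of the IL-4 groups received recombinant IL-4 at 10 ng/ml for 6 h before RNA was taken. The labels describe the knockout only as a deletion of the Fc gamma chain and give no age, sex or number of mice, and the titles tie no array to an animal. Every p-value therefore rests on how far the duplicates of a group differ, and that spread may be technical only.

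IL-4 is the leading cytokine of type 2 immunity. It binds a receptor made of IL-4R alpha and either the common gamma chain or IL-13R alpha 1, the bound Janus kinases phosphorylate STAT6, and STAT6 dimers enter the nucleus and bind DNA. In macrophages this leads to alternative activation, a state known for chitinase-like and resistin-like secreted proteins, endocytic lectins, arginine uptake and proliferation of resident cells in the body cavities. The Fc receptor gamma chain, encoded by Fcer1g, is a small adaptor with an immunoreceptor tyrosine-based activation motif (ITAM). It carries the signal of activating Fc receptors and of several C-type lectins, and it is not a part of the IL-4 receptor.

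The labels and the cells were checked first. Fcer1g was under the background threshold on all 4 KO arrays, at 91.8 and 86.6 with IL-4, against 85.7 and 87.5 unstimulated, and between 9915 and 12988 on the 4 WT arrays. Intensities are the deposited normalized values on a linear scale, on which background lay near 93 units and the brightest probe at 18303. All 7 general macrophage markers that had a named probe were above background on every KO array, among them Adgre1 (the F4/80 antigen), Itgam and the lysozyme gene Lyz2, and Lyz2 sat at the brightest value of the table on 3 of the 4. The other 6 summed to 7947 and 8006 with IL-4, against 8698 and 8649 unstimulated, and of these Cd14 was called lower (log2 -0.33 ± 0.08 SE), but not without unstimulated replicate 2 or IL-4 replicate 2. Of the large peritoneal macrophage markers 15 were measured and Cd5l was below background. Among the 15, Gata6, the lineage factor, was called higher and read 1205 and 1314 with IL-4, against 833 and 852 unstimulated, Selp and Alox15 were called higher too, and Vsig4 (log2 -0.42 ± 0.10 SE) and Tgfb2 (log2 -1.62 ± 0.18 SE) were called lower, Vsig4 not without unstimulated replicate 1 or IL-4 replicate 1. The 15 summed to 41054 and 43772 with IL-4, against 44400.2 and 45353 unstimulated. These sums rest largely on Saa3 and Laptm5, the brightest of the 15, neither of which passed, so they say little about the other members or the cell type. Saa3 read 11805 and 13507 with IL-4, against 12645 and 13761 unstimulated. Laptm5 read 12747 and 12104.5 with IL-4, against 13277 and 13277 unstimulated. Of the markers of other cells, all but 1 of the 7 eosinophil markers, 10 of the 13 fibroblast and mesothelial markers and 6 of the 10 neutrophil markers were below background. The 4 measured neutrophil markers summed to 1107 and 1331 with IL-4, against 1710 and 1587 unstimulated. Among them S100a8 read 830 and 1059 with IL-4, against 1436 and 1305 unstimulated. It was called lower (log2 -0.58), a call that was not kept in every alternative. Mast cell and basophil markers were measured in 8 genes, with Ms4a2 and Mcpt8 below background, and summed to 1710.2 and 2102 with IL-4, against 1525 and 1979.9 unstimulated. Hdc, the histamine-forming decarboxylase of that list, was called higher (log2 1.00 ± 0.19 SE). Of the T and NK cell markers 9 were measured and 5 were below background, Cd4 and Cd8a among them. The 9 were above background on every KO array, Cd3e, Cd3d, Cd3g, Thy1 and Il7r among them. Cd8b1, also of the 9, read 270 and 200 with IL-4, against 255 and 188 unstimulated. The 9 summed to 1514 and 1283 with IL-4, against 1496 and 1242 unstimulated. The 9 measured B cell markers summed to 3064 and 3358 with IL-4, against 3855 and 3951 unstimulated, and without Fcmr to 2565 and 2976 with IL-4, against 2441 and 2687 unstimulated. The B cell factor Pax5 was below background, while Cd79b read 1450 and 1709 with IL-4, against 1229 and 1347 unstimulated. The 4 KO arrays parted by treatment: duplicates correlated at r = 0.995 in both groups, arrays of different treatment at 0.976 to 0.979 over genes, and the leading principal component of the KO arrays took up 79.1% of their variance.

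Log2 changes below are IL-4 minus unstimulated in KO on background-corrected intensities, with the standard error (SE) of the limma fit of 2 arrays a group, and folds are taken from them. A gene was called higher or lower where its p, adjusted by the Benjamini-Hochberg method across the whole table, was under 0.05. IL-4 changed 1897 of 9847 genes (19.3%) in KO macrophages, 925 higher (9.39%) and 972 lower (9.87%), and the 2 IL-4 arrays lay outside the range of the 2 unstimulated arrays for all 1897. Over all genes tested, whether called or not, both IL-4 arrays lay above both unstimulated arrays for 27.9% and below them for 30.4%. Of the 1897 called genes, 244 changed at least 2-fold, 141 higher and 103 lower, and at least 4-fold changes ran 37 higher to 6 lower. The median change of a called gene was 0.55 on the log2 scale. Leaving out a KO array left 1242 genes without unstimulated replicate 1, 1366 without IL-4 replicate 1, 1210 without unstimulated replicate 2 and 1128 without IL-4 replicate 2, and 813 genes were called in the full fit and in all 8 fits that left out 1 array. In none of the 20 alternative settings, these included, was a gene called here also called in the opposite direction. In RNA of whole cultures, fewer cells of a type and less RNA per cell cannot be told apart, and this holds for every value below.

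**Figure D1:**
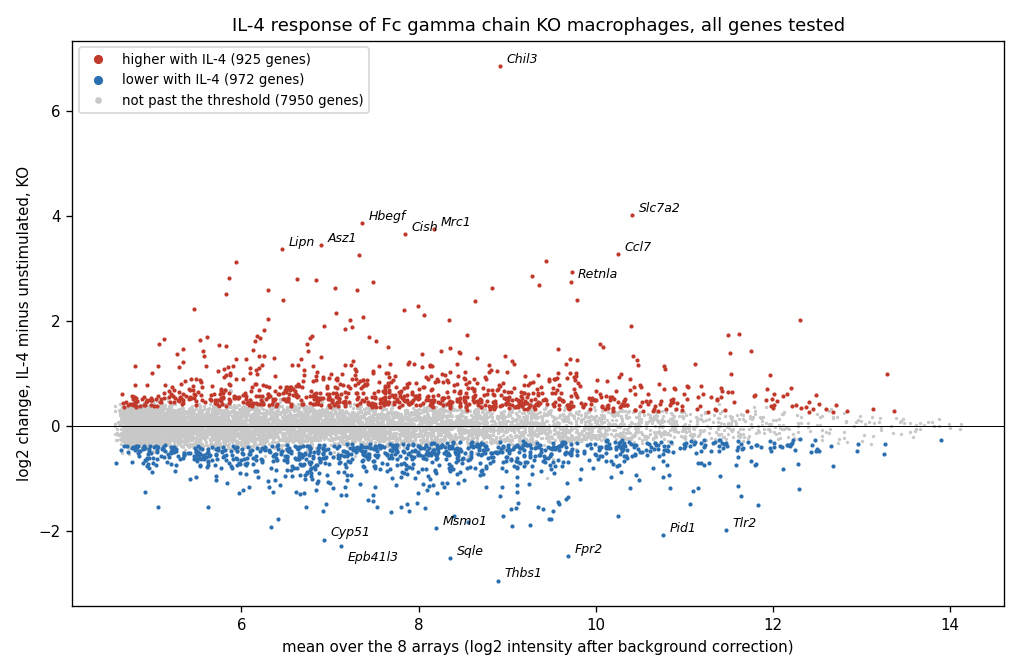
Each point is 1 gene of the KO response. The horizontal axis is its mean over the 8 arrays in log2 intensity after background correction and the vertical axis its log2 change, IL-4 minus unstimulated, with red points for the 925 genes called higher, blue points for the 972 called lower and grey points for the rest. Chil3 stands apart at the top at log2 6.85, and Thbs1 is the lowest point among called genes at -2.95.

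Chil3, Slc7a2, Hbegf, Mrc1, Cish and Asz1 were the genes with the largest increases among called genes. Chil3 encodes a secreted chitinase-like lectin of type 2 inflammation. Its intensity was 4494 and 4674 with IL-4, against 107 and 103 unstimulated, so a gene close to background became one of the bright genes of the arrays (log2 6.85 ± 0.12 SE, adjusted p = 2.2e-13). Slc7a2, a transporter of cationic amino acids such as arginine, read 4648 and 4507 with IL-4, against 332 and 359 unstimulated (16.1-fold). Hbegf, a membrane-bound growth factor of the EGF family, read 665 and 714 with IL-4, against 109 and 108 unstimulated (14.5-fold). Its duplicates lay close together in both groups, and the groups were far apart. Mrc1, the mannose receptor CD206, read 903 and 1376 with IL-4, against 136 and 153 unstimulated (13.4-fold). Cish, a STAT-induced inhibitor of cytokine signalling, read 856 and 787 with IL-4, against 128 and 123 unstimulated (12.5-fold), and Asz1, known for its role in germ cells, read 471 and 674 with IL-4, against 108 and 114 unstimulated (10.9-fold). For Mrc1 and Asz1 the IL-4 duplicates lay further apart than for the other 4 genes, but by less than the distance between the groups. Slc7a2 is represented by the brightest of its 3 probes, which ran from log2 0.43 to 4.01. Without background correction the change of Chil3 was log2 5.45, that of Hbegf 2.67, of Cish 2.71, of Asz1 2.34 and of Mrc1 2.95, since a fold against a level near background depends on what is taken for background.

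**Figure D2:**
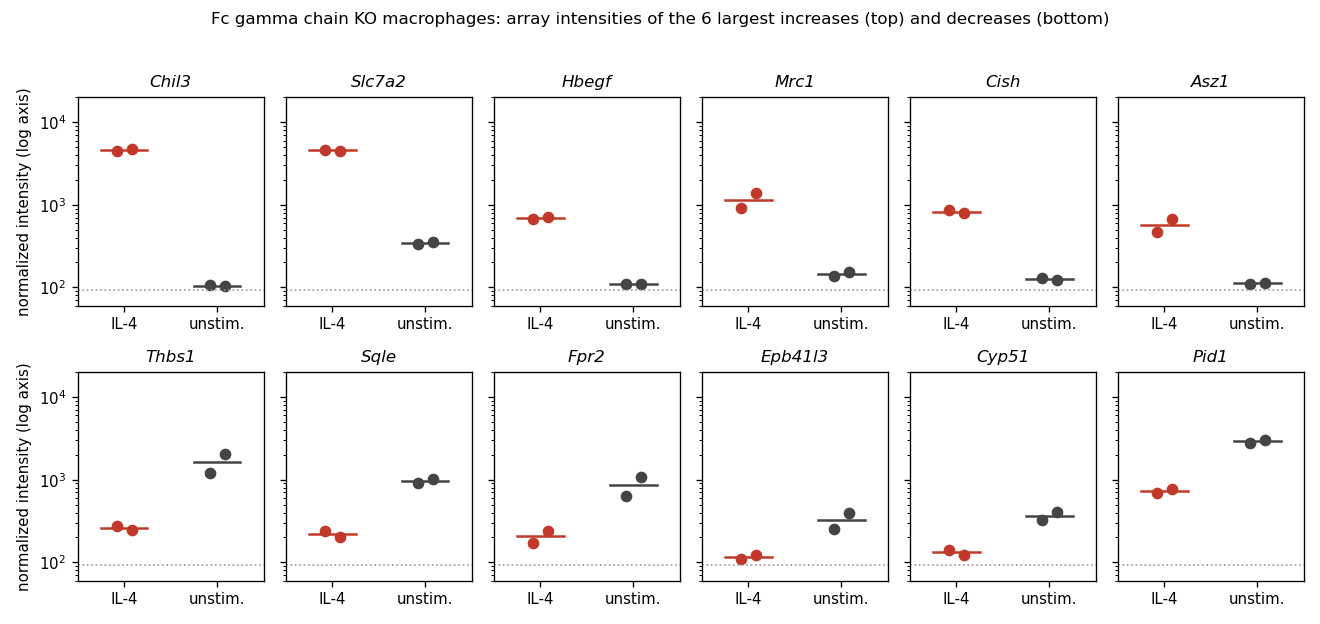
Normalized intensity (log axis) on each KO array for the 6 called genes with the largest increases (top row) and the 6 with the largest decreases (bottom row), IL-4 in red on the left and unstimulated in grey on the right of each panel. Points are arrays, bars are means of 2 arrays and the dotted line is the highest background threshold of the arrays (93.3). In every panel the IL-4 arrays lie on one side of both unstimulated arrays.

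Feedback inhibitors of cytokine signalling rose, while more called genes of the receptor pathway fell than rose. Of 14 measured genes of the IL-4 receptor and JAK-STAT6 list, 1 rose and 3 fell. This was 28.6% called, against 19.3% over all genes. The median log2 change was -0.06, against -0.01 over all genes. Jak2, a kinase of many cytokine receptors, rose (log2 0.90 ± 0.10 SE), and Ptpn6, the phosphatase SHP-1 that dampens such signalling, fell (log2 -0.58 ± 0.10 SE). Stat6 read 240.2 and 235 with IL-4, against 252 and 305 unstimulated (log2 -0.30 ± 0.13 SE, adjusted p = 0.132) and did not pass, but it was called lower without unstimulated replicate 1 and with the mean of all its probes. The other 2 that fell, Tyk2 and Pik3r1, were not called without unstimulated replicate 1, unstimulated replicate 2 or IL-4 replicate 2. Of 13 measured SOCS genes and other feedback inhibitors 6 rose, with Cish first, and 1 fell, Pias3, whose call was lost without unstimulated replicate 1 or IL-4 replicate 2. Socs2 read 719 and 548 with IL-4, against 217 and 195 unstimulated (4.02-fold), Socs1, which blocks Janus kinases, read 139 and 149 with IL-4, against 92.9 and 96.7 unstimulated (2.68-fold), and Socs3 read 611 and 648 with IL-4, against 303 and 424 unstimulated (1.93-fold). Cish, Socs2 and Socs3 kept their call in each of the 20 alternatives and Socs1 in those that measured it, since it was under background on 1 unstimulated array. Without background correction Socs1 changed by log2 0.60.

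The alternative activation list had the highest median of the 73 lists. This list was assembled from genes known from alternative activation, with earlier results of these data known, so its rank is not an independent result. Of its 35 measured members 24 rose and 2 fell, and 14 of the 24 and both of the 2 kept their call in all 20 alternatives, 1 of which leaves out genes under background on any KO array. The median log2 change was 0.99. Among lectins and secreted proteins, Mgl2, a galactose-type lectin, read 492 and 691 with IL-4, against 119 and 121 unstimulated (9.48-fold), and its neighbour in the family Clec10a read 134 and 202 with IL-4, against 98.7 and 92.5 unstimulated (3.23-fold). Retnla, a resistin-like secreted protein, read 2255 and 2887 with IL-4, against 449 and 425 unstimulated (6.70-fold), and Rnase2a, an eosinophil-type ribonuclease, read 208 and 313 with IL-4, against 90.6 and 93.8 unstimulated (7.06-fold). In Mgl2, Retnla and Rnase2a both IL-4 arrays lay above both unstimulated arrays by more than the duplicates differed, while the IL-4 duplicates of Clec10a differed by more than the gap between its groups. Clec7a, the beta-glucan receptor dectin-1, read 10648 and 10170.2 with IL-4, against 2429.8 and 2820.0 unstimulated (4.05-fold). Cdh1, the epithelial cadherin that IL-4 is known to induce in macrophages, read 263 and 249.9 with IL-4, against 95.9 and 99.1 unstimulated (5.97-fold). Flt1, a VEGF receptor, was under background on both unstimulated arrays and read 223 and 212 with IL-4, against 92.8 and 91.5 unstimulated, at least 2.33-fold higher on the intensities before background correction. Without background correction the log2 changes were 2.28 for Mgl2, 0.79 for Clec10a, 1.47 for Rnase2a and 1.40 for Cdh1. Mgl2 and Clec10a are close relatives, as are the genes around Rnase2a, and cross-hybridisation between such probes was not tested.

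The transcription factors of the list rose as well. Egr2, a zinc finger factor downstream of STAT6, read 1992 and 1658 with IL-4, against 279.8 and 249 unstimulated (8.83-fold). Pparg, the fatty acid sensing nuclear receptor, read 281 and 274 with IL-4, against 107 and 104 unstimulated (5.28-fold). Klf4 read 183 and 236 with IL-4, against 100.4 and 91.6 unstimulated (4.69-fold), and Myc read 131 and 132 with IL-4, against 103 and 107 unstimulated (1.68-fold). Klf4, Pparg and Myc were close to background before IL-4, so the sizes of their changes depend on the background correction. Klf4 was under the threshold on 1 of its 2 unstimulated arrays. Without background correction the log2 changes of Klf4 and Pparg were 1.12 and 1.39. Irf4 was called at log2 0.73 ± 0.16 SE, a call that was lost without unstimulated replicate 2 and without IL-4 replicate 2. The transferrin receptor Tfrc (2.25-fold), the transglutaminase Tgm2 (1.99-fold), the lipoxygenase Alox15 (2.00-fold) and the inhibitory Fc receptor Fcgr2b (1.95-fold) rose by smaller factors, and the checkpoint ligand Pdcd1lg2 read 108 and 108 with IL-4, against 94.7 and 92.2 unstimulated (log2 0.62 ± 0.12 SE). Pdcd1lg2 was close to background too, and under the threshold on 1 of its 2 unstimulated arrays, so the size of its change also depends on the correction. Members known from this state did not all rise. Arg1, arginase 1, lay near the upper end of the intensity range before IL-4 and read 12203 and 12203 with IL-4, against 12203 and 11252 unstimulated (adjusted p = 0.746). Vegfa, an angiogenic factor, fell and read 162 and 128 with IL-4, against 279.7 and 243 unstimulated (2.49-fold), and F13a1, the A chain of coagulation factor XIII, fell and read 1662 and 1413 with IL-4, against 3332 and 2864 unstimulated (2.06-fold).

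**Figure D3:**
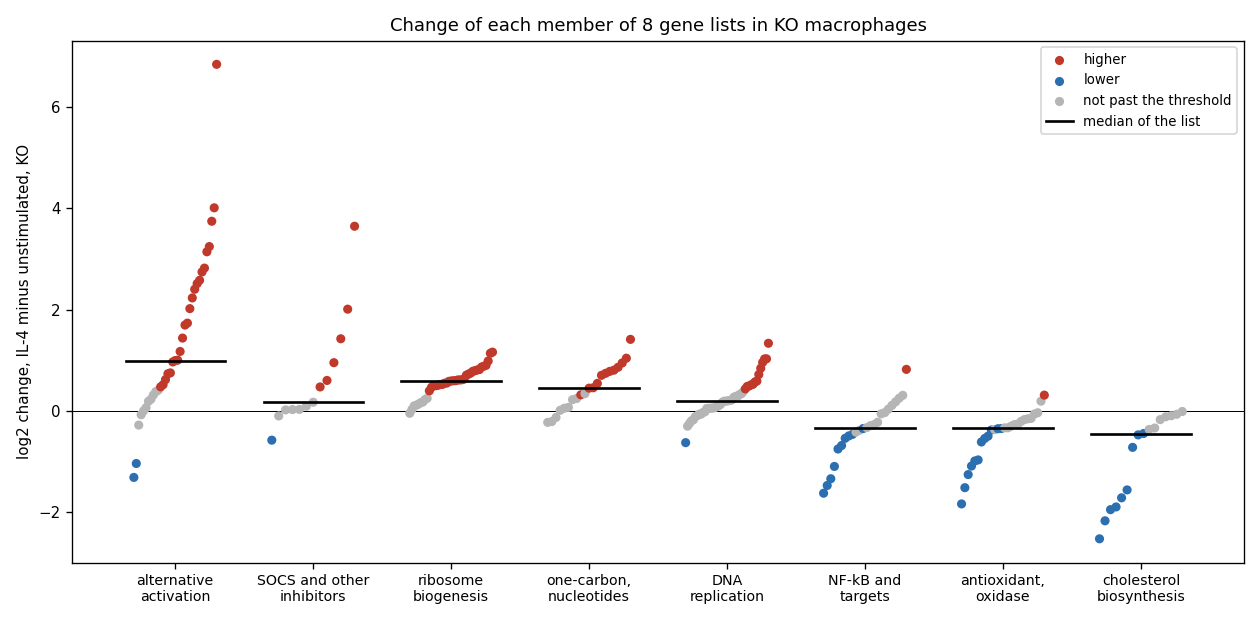
Log2 change with IL-4 in KO of every measured member of 8 gene lists, sorted within each list, with red for members called higher, blue for called lower and grey for members not past the threshold, and a black bar at the list's median. The medians run from 0.99 for alternative activation to -0.46 for cholesterol biosynthesis.

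STAT6 favours palindromic sites made of TTC and GAA with 4 bases of any kind between them. These letters, searched on both strands (the pattern is its own reverse complement), occurred in 7 of the 25 alternative activation promoters that the RefSeq table holds (28.0%). They occurred in 6.73% of the promoters of all genes tested, in 8.70% of those of genes that rose at least 2-fold and in 8.01% of all promoters in the table. Among the 20 called genes with the largest increases they occurred in 1 of 17 promoters (5.88%). The alternative activation list had been assembled from genes known from that state, with earlier results of these data known, so its share is a description only. Each promoter is a window of 300 bases, 250 before and 50 after the annotated start. The 7 were those of Retnla, Ccl17, Pdcd1lg2, Il1rn, Cd36, Clec7a and Tfec. Il1rn and Cd36 were not called, and the call of Tfec was lost without unstimulated replicate 1, unstimulated replicate 2 or IL-4 replicate 2. A match of letters is a description and not evidence that STAT6 binds there. Of the 7, 3 that rose in every alternative that measured them are shown with the match in capitals, 5′ to 3′ on the gene's strand in GRCm38.p6. They are Retnla (chr16:48842359-48842658, plus strand, match starting at base -145 from the start site), Clec7a (chr6:129472730-129473029, minus strand, the first of the 2 windows that the table holds for it, match at -131) and Ccl17 (chr8:94810203-94810502, plus strand, match at -154).
Retnla: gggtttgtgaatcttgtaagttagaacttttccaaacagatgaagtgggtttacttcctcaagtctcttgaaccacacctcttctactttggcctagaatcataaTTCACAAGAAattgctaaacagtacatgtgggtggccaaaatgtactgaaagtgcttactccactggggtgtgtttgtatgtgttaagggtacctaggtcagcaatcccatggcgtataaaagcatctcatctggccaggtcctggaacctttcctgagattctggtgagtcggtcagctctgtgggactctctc
Clec7a: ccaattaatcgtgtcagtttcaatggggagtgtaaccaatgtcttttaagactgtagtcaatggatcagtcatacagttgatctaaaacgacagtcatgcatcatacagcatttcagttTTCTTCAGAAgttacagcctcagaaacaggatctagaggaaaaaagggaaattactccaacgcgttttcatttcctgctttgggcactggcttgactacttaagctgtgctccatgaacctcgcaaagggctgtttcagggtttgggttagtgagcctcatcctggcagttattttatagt
Ccl17: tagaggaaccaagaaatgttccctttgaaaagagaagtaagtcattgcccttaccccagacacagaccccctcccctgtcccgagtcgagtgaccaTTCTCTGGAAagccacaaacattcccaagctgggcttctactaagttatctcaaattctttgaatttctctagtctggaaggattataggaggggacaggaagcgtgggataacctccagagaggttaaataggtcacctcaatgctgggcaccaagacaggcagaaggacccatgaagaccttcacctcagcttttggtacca

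Genes that build ribosomes rose together. Of 39 measured genes of ribosome biogenesis and RNA polymerase I, 30 rose (76.9%), 20 of them in every alternative, and the median log2 change was 0.59. The log2 changes of all members ran from -0.05 to 1.16. Ncl, the abundant nucleolar protein nucleolin, read 685 and 763 with IL-4, against 363 and 357 unstimulated (2.23-fold), and Rrp12, needed for export of ribosomal subunits, read 510.2 and 459 with IL-4, against 266 and 246 unstimulated (2.20-fold). Bop1, of the complex that matures the large subunit RNA, read 484 and 476 with IL-4, against 279 and 272 unstimulated (1.98-fold), while Pes1 of the same complex read 453 and 443 with IL-4, against 429.8 and 411 unstimulated and did not pass (log2 0.11 ± 0.11 SE). Nop58 (1.86-fold) and Gar1 (1.84-fold), core proteins of the particles that modify ribosomal RNA, and Nle1 (1.82-fold) rose too.

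Nucleotide synthesis rose alongside. Of 21 measured genes of one-carbon and nucleotide synthesis 12 rose, with 8 kept in every alternative. Prps1, which makes the activated ribose of all nucleotides, read 591 and 819 with IL-4, against 319.8 and 286 unstimulated (2.66-fold). The purine enzymes Ppat, which takes the first committed step, and Atic, which takes the last ones to inosine monophosphate, rose 1.92-fold and 1.71-fold. The pyrimidine enzymes Cad (1.81-fold), Dhodh (1.74-fold) and Ctps (2.05-fold) rose as well, so both branches of the pathway were among the called genes. Shmt2, the mitochondrial serine hydroxymethyltransferase that feeds one-carbon units, rose 2.24-fold, and the folate carrier Slc19a1 rose 2.34-fold. Upp1, which breaks down uridine for salvage, was among the 20 genes with the largest increases and read 702 and 1070.5 with IL-4, against 135 and 239.6 unstimulated (7.25-fold). Its log2 change ran from 2.20 without unstimulated replicate 1 to 3.52 without unstimulated replicate 2.

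DNA replication genes followed in part. Of 44 measured replication and cell cycle genes 13 rose and 1 fell, 7 rising in every alternative. The count was 7 without unstimulated replicate 1 and 7 without IL-4 replicate 2. The helicase subunits Mcm2 (2.04-fold), Mcm5 (2.03-fold), Mcm6 (1.79-fold) and Mcm4 (1.64-fold), which license origins before replication, rose, and so did the uracil glycosylase Ung (2.52-fold) and Uhrf1, which keeps DNA methylation at the fork (1.94-fold). Mcm2 read 236 and 257 with IL-4, against 156 and 153 unstimulated. The 3 probes of Ung ran from log2 0.09 to 1.33. The 1 that fell was not called without unstimulated replicate 2 or IL-4 replicate 2. The G1 cyclin Ccnd1 read 5017 and 4391 with IL-4, against 4924 and 4914 unstimulated and did not pass (log2 -0.07 ± 0.17 SE). Of 44 measured histone genes 1 passed, H3f3a, which was lower and lost its call without any 1 of the 4 KO arrays.

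Translation and heat shock genes rose in smaller shares. Of 17 aminoacyl-tRNA synthetases 5 rose, led by Vars (1.79-fold), Rars (1.71-fold) and Iars (1.72-fold). Of 51 genes with initiation or elongation factor symbols 12 rose and 1 fell. The 12 became 6 without unstimulated replicate 1, 7 without IL-4 replicate 1 and 7 without IL-4 replicate 2. The fall was that of Eif4ebp1, an inhibitor of cap-dependent initiation (log2 -0.52 ± 0.09 SE). Of 69 mitochondrial ribosomal proteins 17 rose and 1 fell, but without unstimulated replicate 1, IL-4 replicate 1, unstimulated replicate 2 or IL-4 replicate 2 the 17 became 7, 7, 8 and 3. Mrpl12 (log2 0.67 ± 0.10 SE) and Mrps5 (log2 0.63 ± 0.12 SE) were the members kept throughout. Of 58 cytosolic ribosomal proteins 8 rose, a share near the 9.39% of all genes, and 4 without any 1 KO array. Of 21 heat shock and chaperonin genes 6 rose, also without any 1 array. They include the mitochondrial chaperonin Hspd1, which read 1417 and 1758 with IL-4, against 934 and 873 unstimulated (1.81-fold), and Hsph1 (1.81-fold). Of 23 chaperones and genes of the unfolded protein response 2 rose and 4 fell, 26.1% called against 19.3% over all genes. Called or not, 20 of the 23 lay below 0, with a median log2 change of -0.12, against -0.01 over all genes. Pdia4, a protein disulfide isomerase, rose (log2 0.73 ± 0.12 SE), and Dnajb9, a co-chaperone of the endoplasmic reticulum, fell (log2 -0.75 ± 0.13 SE). The 2 became 1 without any 1 KO array, and the 4 became 2 without IL-4 replicate 1 or 2 and 1 without unstimulated replicate 2. The proteasome assembly chaperone Psmg1 rose 1.84-fold, while the constitutive heat shock protein Hspa8 read 11286 and 11252 with IL-4, against 10981 and 10170.2 unstimulated and did not pass.

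Transport and handling of amino acids changed in both directions. Of 31 measured genes of amino acid, arginine and polyamine metabolism 9 rose and 5 fell. Beside Slc7a2, the large neutral amino acid transporter Slc7a5 read 732 and 721 with IL-4, against 276 and 253 unstimulated (3.33-fold), and the spermidine synthase Srm rose 1.90-fold. Slc7a11, which imports cystine for glutathione, fell and read 183 and 134 with IL-4, against 412 and 366 unstimulated (3.59-fold). The 5 decreases became 3 without IL-4 replicate 1 and 3 without unstimulated replicate 2. Il4i1, a secreted amino acid oxidase named for its induction by IL-4, read 1748 and 1911 with IL-4, against 322 and 276 unstimulated (7.59-fold). Over all 176 measured solute carriers 19 rose and 21 fell, near the background shares. The 19 became 10 without IL-4 replicate 1 and 9 without unstimulated replicate 2, and the 21 became 11 without unstimulated replicate 1 and 9 without IL-4 replicate 2.

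**Figure D4:**
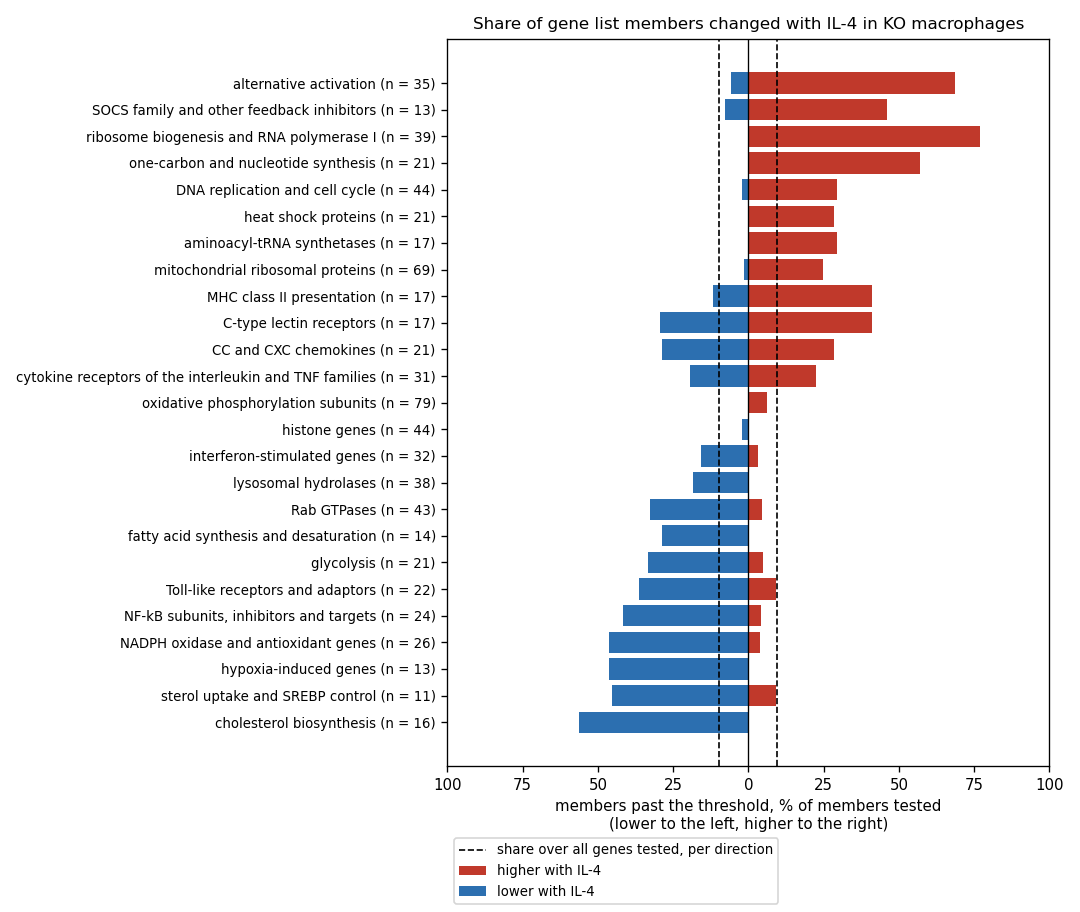
Share of the measured members of 25 gene lists called higher (red, to the right) or lower (blue, to the left) with IL-4 in KO, with the number measured beside each name. Dashed lines mark the shares over all genes tested, 9.39% higher and 9.87% lower. Ribosome biogenesis reaches 76.9% higher, and histone genes stay inside both lines.

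Many genes of sterol synthesis fell. Of 16 measured cholesterol biosynthesis genes 9 fell, 6 of them in every alternative, with a median log2 change of -0.46. Sqle, squalene epoxidase, read 240.1 and 204 with IL-4, against 911 and 1023 unstimulated (5.79-fold). Cyp51, the lanosterol demethylase, read 139.6 and 123 with IL-4, against 326 and 401 unstimulated (4.52-fold), and Msmo1, a sterol methyl oxidase, read 252 and 205 with IL-4, against 655 and 727 unstimulated (3.88-fold). The earlier enzymes Hmgcs1, which makes HMG-CoA, and Fdps, which makes farnesyl pyrophosphate, read 836 and 675 with IL-4, against 2376 and 2277 unstimulated (3.30-fold) and 443 and 429 with IL-4, against 1291 and 1629.8 unstimulated (3.74-fold). The decreases therefore spanned the pathway on both sides of squalene. Members that did not pass had smaller differences, such as log2 -0.12 ± 0.10 SE for Ebp, and Mvd (log2 -0.34 ± 0.16 SE) passed only without unstimulated replicate 1 and with a block within genotype. Among regulators, the transcription factor gene Srebf2 fell (log2 -0.76 ± 0.12 SE) and Stard4, a cytosolic sterol carrier, fell 3.84-fold. Without background correction Cyp51 changed by log2 -1.46 and Stard4 by -1.12.

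The promoter of Hmgcs1 holds the letters TCACNCCAC of the sterol regulatory element bound by SREBP, which 1.42% of the promoters of all genes tested hold on either strand. It was the only cholesterol promoter of the 14 in the table with these letters. The shorter letters CCAAT, searched on both strands, occurred in 14 of the 14, against 43.6% of the promoters of all genes tested. Neither match of letters is evidence that a factor binds there, and no link to the decreases was tested. The Hmgcs1 window is chr13:119690101-119690400 on the plus strand of GRCm38.p6, and the capitals mark the matching letters, which start at base -137.
Hmgcs1: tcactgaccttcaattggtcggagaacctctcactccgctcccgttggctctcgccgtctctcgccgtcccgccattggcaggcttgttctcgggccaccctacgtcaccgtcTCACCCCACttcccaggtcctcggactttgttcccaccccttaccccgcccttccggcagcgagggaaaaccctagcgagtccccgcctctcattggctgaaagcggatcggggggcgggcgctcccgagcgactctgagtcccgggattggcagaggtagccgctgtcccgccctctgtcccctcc

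Other lipid genes fell more often than they rose. Of 14 fatty acid synthesis genes 4 fell, among them the desaturase Fads1 (2.15-fold), the acetyl-CoA synthetase Acss2 (1.93-fold) and the carboxylase Acaca (1.71-fold). Of 35 glycerolipid, phospholipid and sphingolipid enzymes 4 rose and 11 fell. The 4 became 2 without IL-4 replicate 1 or unstimulated replicate 2, and the 11 became 7 without unstimulated replicate 2 or IL-4 replicate 2. Lpcat2, which makes platelet-activating factor, read 130.0 and 141 with IL-4, against 230.2 and 322 unstimulated (2.94-fold), and the sphingosine kinase Sphk1 rose and read 617 and 408 with IL-4, against 175 and 148 unstimulated (4.58-fold), though the second of its 2 probes changed by log2 0.08. In eicosanoid synthesis the prostaglandin E synthase Ptges read 154 and 183 with IL-4, against 414 and 490.1 unstimulated (3.77-fold). The 5-lipoxygenase Alox5 (1.91-fold) and its activating protein Alox5ap (1.70-fold) fell, whereas Alox15 rose 2.00-fold. Of the targets of PPAR and LXR, the cholesterol exporter Abcg1 rose 2.73-fold and the lipoprotein lipase Lpl 1.65-fold, while Apoc2 fell 2.66-fold and the LXR gene Nr1h3 1.61-fold. Lipn, a lipase gene, was among the genes with the largest increases and read 447 and 450.5 with IL-4, against 106 and 99.5 unstimulated (10.3-fold). Without background correction the log2 change was 2.13 for Lipn and 0.62 for Abcg1.

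More innate sensing genes fell than rose. Of 22 Toll-like receptors and adaptors 2 rose and 8 fell. The 8 became 5 without unstimulated replicate 1, 5 without unstimulated replicate 2 and 3 without IL-4 replicate 2. Without unstimulated replicate 1 the 2 became 0, and 1 was left without IL-4 replicate 2. Tlr2, the receptor of bacterial lipopeptides, read 988 and 940.1 with IL-4, against 3623 and 3651 unstimulated (3.98-fold). Tlr13 (1.75-fold) and the inhibitory kinase Irak3 (2.25-fold) fell too, while the adaptor Myd88 read 1701 and 1859 with IL-4, against 1931 and 2102 unstimulated and did not pass. Fpr2, a receptor of formyl peptides, read 170.4 and 242 with IL-4, against 635 and 1082 unstimulated (5.59-fold), and its unstimulated duplicates lay apart by more than its IL-4 duplicates. The fractalkine receptor Cx3cr1 (2.92-fold) and the medium-chain fatty acid receptor Gpr84 (1.94-fold) also fell, and Cx3cr1 changed by log2 -0.68 without background correction. In all, 3 of 15 chemoattractant receptors rose and 8 fell, or 5 fell without IL-4 replicate 2. The leukotriene B4 receptor Ltb4r1 was among the 3 that rose (1.85-fold).

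Of the genes around NF-kB, a transcription factor of inflammatory signalling, more fell than rose. Of 24 genes of NF-kB subunits, inhibitors and targets 1 rose and 10 fell, with a median log2 change of -0.34. The neutrophil chemokines Cxcl1 and Cxcl2 read 265 and 199 with IL-4, against 656 and 499 unstimulated (3.10-fold) and 210.1 and 242 with IL-4, against 426 and 523 unstimulated (2.54-fold). Tnfaip2 fell 2.79-fold and Tnf fell 1.69-fold. The inhibitor Tnfaip3, known as A20, was the member that rose (1.76-fold). The subunit Rela (log2 -0.23 ± 0.11 SE) and the inhibitor Nfkbia (log2 -0.06 ± 0.10 SE) did not pass. Il1b was called lower (log2 -1.10 ± 0.35 SE, adjusted p = 0.0425), and the call was lost in 9 of the 20 alternatives, among them without IL-4 replicate 1, unstimulated replicate 2 or either WT unstimulated array. The letters GGG and TTCC with 3 bases of any kind between them, searched on both strands, occurred in 10 of the 22 promoters of this list that the table holds (45.5%), against 7.44% of those of all genes tested; the list had been assembled from genes known as targets of the factor.

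Cytokine genes and their receptors moved in different directions. Of 27 cytokine and growth factor genes 4 rose and 11 fell, or 7 fell without unstimulated replicate 2. Tgfb2 fell 3.08-fold, Il16 2.26-fold, Ltb 2.14-fold and Il18 1.78-fold. Of 31 receptors 7 rose, all 7 in every alternative, and 6 fell. The shared receptor subunit Il6st, known as gp130, read 403 and 393 with IL-4, against 154 and 163 unstimulated (3.59-fold). The beta subunits of the GM-CSF, IL-3 and IL-5 receptors, Csf2rb and Csf2rb2, rose 2.43-fold and 2.22-fold, and the IL-1 receptor accessory protein Il1rap rose 2.43-fold. Tnfrsf21 (2.19-fold) and Il17ra (1.85-fold) fell. Il20rb, a receptor subunit for cytokines of the IL-20 group, read 438 and 250.3 with IL-4, against 109 and 107 unstimulated (6.19-fold). Without background correction Il20rb changed by log2 1.62 and Il1rap by 0.63.

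Chemokines changed in both directions. Of 21 measured 6 rose and 6 fell, and the 6 decreases became 3 without unstimulated replicate 1. The monocyte chemokine Ccl7 read 4721 and 5215 with IL-4, against 511 and 644 unstimulated (9.65-fold), Ccl2 read 1369 and 1662 with IL-4, against 297 and 302 unstimulated (6.17-fold) and Ccl12 read 1624 and 2065 with IL-4, against 324 and 358 unstimulated (6.42-fold). These 3 genes belong to 1 family of similar sequence, and cross-hybridisation among their probes was not tested. Ccl17, which attracts T helper 2 cells, read 139 and 153 with IL-4, against 98.0 and 92.5 unstimulated (2.71-fold), or log2 0.61 without background correction. The eosinophil attractant Ccl24 rose 3.32-fold, and its call was lost with robust eBayes. On the other side stood Cxcl1, Cxcl2 and Cxcl16 (2.73-fold). Pf4, platelet factor 4, was bright at 5712 and 5281 with IL-4, against 5873 and 6050.4 unstimulated and did not pass.

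C-type lectins also split. Of 17 measured 7 rose and 5 fell, with 4 and 4 kept in every alternative. Mrc1, Mgl2, Clec7a, Clec10a and the activation marker Cd69 (3.07-fold) rose. Clec4n, known as dectin-2, which signals through the Fc gamma chain, read 1015 and 809 with IL-4, against 2239 and 2642 unstimulated (2.81-fold). Clec4e (Mincle) read 818 and 1114 with IL-4, against 1766 and 2448 unstimulated and fell by 1.18 on the log2 scale. Clec4d fell by 1.21 and Clec5a fell by 1.47, and these 3 were chosen after their values were seen. All 4 kept their calls in every alternative. Clec4e and Clec4d use the same chain, and Clec5a uses the related adaptor encoded by Tyrobp. Among Fc receptors and other ITAM genes, 5 of 31 rose and 7 fell, and the 7 became 4, 3 and 4 without unstimulated replicate 1, unstimulated replicate 2 and IL-4 replicate 2. Fcgr2b read 6118 and 6512 with IL-4, against 3203 and 3332 unstimulated (1.95-fold), and the Fc receptor-like gene Fcrls rose 2.01-fold. Fcgr1, the high-affinity IgG receptor, was called lower (log2 -0.69 ± 0.15 SE), a call lost without unstimulated replicate 2.

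Genes of class II presentation and co-stimulation, which form 1 list here, rose in part. Of 17 measured 7 rose and 2 fell. The peptide loading genes H2-DMa (1.98-fold) and H2-DMb1 (1.57-fold) rose, as did the co-stimulatory receptor Cd40 (1.77-fold) and the checkpoint ligand Cd274 (1.91-fold). The class II beta chain genes H2-Ab1 (log2 0.35 ± 0.17 SE) and H2-Eb1 (log2 0.13 ± 0.15 SE) did not pass, though H2-Ab1 was called higher without either WT IL-4 array. The alpha chain gene H2-Aa did not pass either (log2 0.43). The co-stimulatory ligand Cd86 fell 1.83-fold. The 2 decreases became 1 without IL-4 replicate 1 or unstimulated replicate 2. The summed dendritic cell and small peritoneal macrophage markers, which share H2-Ab1, H2-Eb1 and Cd74 with this list, were 12290 and 14420 with IL-4, against 10453 and 11328 unstimulated, with Flt3 and Ccr2 below background. Of the B cell genes, Fcmr read 499.6 and 382 with IL-4, against 1414 and 1264 unstimulated (3.43-fold) and Blk fell 2.28-fold. Cd22 rose (log2 0.76 ± 0.17 SE), a call lost without unstimulated replicate 1 or IL-4 replicate 2, and the other 6 measured, among them Cd79a (log2 -0.36 ± 0.24 SE) and Cd79b (log2 0.30 ± 0.21 SE), did not pass. The part of other cell types in these values was not tested.

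Antioxidant, hypoxia and glycolysis genes fell more often than they rose. Of 26 NADPH oxidase and antioxidant genes 1 rose and 12 fell, or 6 fell without unstimulated replicate 1 and 7 without IL-4 replicate 2. The 1 became 0 without unstimulated replicate 1, IL-4 replicate 1 or unstimulated replicate 2. Hmox1, heme oxygenase 1, read 2494 and 1589.7 with IL-4, against 6803 and 4596 unstimulated (2.87-fold). Catalase, encoded by Cat, fell 2.13-fold and Ncf1, the p47-phox subunit of the oxidase, 1.99-fold. The autophagy receptor Sqstm1, a partner of the antioxidant response, fell 1.97-fold. The ferritin chain Fth1 read 15947 and 16131 with IL-4, against 16491 and 16491 unstimulated and did not pass. Of 13 hypoxia-induced genes 6 fell, with Ddit4 (1.80-fold), P4ha2 (1.76-fold) and Bnip3l (1.63-fold) beside Vegfa and Hmox1. Of 21 glycolysis genes 1 rose and 7 fell, and the 7 became 4, 3, 3 and 4 without unstimulated replicate 1, IL-4 replicate 1, unstimulated replicate 2 and IL-4 replicate 2. The aldolases Aldoc (log2 -0.74 ± 0.15 SE) and Aldoa (log2 -0.73 ± 0.08 SE) fell, Gapdh and Ldha did not pass (log2 -0.15 ± 0.08 SE and log2 0.20 ± 0.08 SE), and Pfkfb4, which makes an activator of phosphofructokinase, rose 2.27-fold.

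Vesicle traffic genes also fell more often than they rose. Of 43 Rab GTPases 2 rose and 14 fell, or 8, 8, 8 and 6 fell without unstimulated replicate 1, IL-4 replicate 1, unstimulated replicate 2 and IL-4 replicate 2, and the 2 became 1 without any 1 of them. Rab27a, of secretory granule release, read 338 and 402 with IL-4, against 656 and 847 unstimulated (2.24-fold), and Rab32, of lysosome-related organelles, fell 2.21-fold. Of 38 lysosomal hydrolases 7 fell, or 3 fell without unstimulated replicate 2, with Ctsh (1.78-fold) and Hexa (1.56-fold) kept throughout. Cathepsin B, encoded by Ctsb, was among the bright genes and read 9986 and 10065 with IL-4, against 10516 and 9915 unstimulated, with a log2 change of -0.03 that did not pass. Of 20 iron and heme genes 2 rose, near the share of all genes, and 4 fell. The importer Tfrc and the regulator Hfe (1.90-fold) were higher, and Hmox1, the heme transporter Slc48a1 (1.93-fold), the biliverdin reductase Blvrb (1.68-fold) and the phagosomal metal transporter Slc11a1 (1.45-fold) lower.

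Adhesion and matrix genes held the largest decrease. Thbs1, the matricellular protein thrombospondin 1, read 276 and 244 with IL-4, against 1212 and 2035 unstimulated (7.75-fold). The caveolins Cav1 (3.42-fold) and Cav2 (2.41-fold) fell. Of 16 genes with integrin symbols 2 rose and 3 fell, 31.2% called against 19.3% over all genes. Their median log2 change was 0.16. The chains Itgb5 (2.65-fold), Itga6 (2.19-fold) and Itgb7 (2.05-fold) fell, while the chain Itgav (log2 0.54 ± 0.15 SE) and Itgb1bp1, which encodes an integrin-binding protein (log2 0.58 ± 0.09 SE), rose. The call of Itgav was lost without unstimulated replicate 1 or IL-4 replicate 1. The membrane metalloproteinase Mmp14 fell 2.57-fold, while the collagenase Mmp13 read 2425 and 1296 with IL-4, against 454 and 334 unstimulated (5.27-fold), with probes from log2 0.06 to 2.40. P-selectin, an adhesion receptor encoded by Selp, rose 3.27-fold, and the urokinase Plau rose 2.83-fold. Smad3, which carries the TGF-beta signal, fell 2.70-fold. Of 25 measured adhesion and matrix genes 4 rose and 8 fell, and the 8 became 5 without unstimulated replicate 1 and 4 without IL-4 replicate 2.

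Further leading genes belong to none of these groups. Upward they were Ffar2, a receptor of short-chain fatty acids that was under background on both unstimulated arrays and read 259 and 321 with IL-4, against 92.9 and 89.2 unstimulated (at least 3.09-fold higher before background correction), the ADP receptor P2ry1 (6.92-fold), the Golgi protein gene Gask1b (6.87-fold) and the secreted signal Wnt2 (6.63-fold). Wnt2 read 710.2 and 719 with IL-4, against 157 and 170.3 unstimulated. Downward they were the cytoskeletal linker Epb41l3, which read 111 and 122 with IL-4, against 249 and 398 unstimulated (4.88-fold), Pid1, known for binding lipoprotein receptors, which read 691 and 772 with IL-4, against 2815 and 2991 unstimulated (4.27-fold), the lysophosphatidic acid receptor Lpar6 (3.30-fold), the methionine sulfoxide reductase Msrb1 (3.29-fold) and Dnmt3l, a cofactor of DNA methylation (3.43-fold). The clock-controlled repressor Nfil3 rose 4.33-fold and Bhlhe40 1.84-fold, while Dbp fell 1.85-fold. Without background correction the log2 changes were 1.73 for P2ry1, 1.98 for Gask1b, 2.13 for Wnt2, -1.44 for Epb41l3 and -0.82 for Dnmt3l. The probes of Epb41l3 ran from log2 -2.29 to -0.01.

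Several lists had a share of called genes near or below the 19.3% over all genes. The share was 18.8% for interferon-stimulated genes and 11.8% for class I presentation. It was 9.52% for the TCA cycle and 6.33% for oxidative phosphorylation. Of 79 oxidative phosphorylation subunits 5 rose, of 21 TCA cycle genes 1 rose and 1 fell, of 17 class I presentation genes 1 rose and 1 fell, and of 9 T and NK cell markers 0 passed in limma, with 1 at an unadjusted p under 0.05. Without unstimulated replicate 1, IL-4 replicate 1, unstimulated replicate 2 and IL-4 replicate 2, the 5 became 2, 3, 1 and 2, and each of the TCA cycle and class I calls was lost without at least 1 of these arrays. Of 32 interferon-stimulated genes 1 rose and 5 fell, and none of these 6 calls was kept in every alternative. Without unstimulated replicate 1, IL-4 replicate 1, unstimulated replicate 2 and IL-4 replicate 2, 1, 2, 1 and 2 fell.

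Of 17 measured immediate early genes 5 rose and 2 fell, or 2 rose and 3 fell without IL-4 replicate 1, and 1 fell without unstimulated replicate 1 or IL-4 replicate 2. Egr2, Atf3 (1.66-fold) and Myc were among those that rose, and Fos fell 2.33-fold. Egr1 read 695 and 400.0 with IL-4, against 1056 and 649 unstimulated and did not pass (log2 -0.73 ± 0.27 SE), although it was called lower without IL-4 replicate 1 or unstimulated replicate 2.

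The difference between the responses of KO and WT was tested gene by gene. It passed for 12 of 9847 genes (0.122%), with 645 at an unadjusted p under 0.05, so for most genes named above no difference from WT was shown. The 12 became 5 without KO unstimulated replicate 1 or KO IL-4 replicate 1, 4 without KO IL-4 replicate 2, and 3 without KO unstimulated replicate 2, WT unstimulated replicate 2 or WT IL-4 replicate 2. They became 4 with probes above background on all 4 KO arrays and 19 without background correction or without a filter on dim probes. The chemokine Ccl4 and Tlr2 passed in all 19 alternatives that gave the difference. Ccl4 read 615 and 767 with IL-4, against 578 and 563 unstimulated in KO and averaged 2076 with IL-4, against 502 unstimulated in WT, a difference of log2 -1.89 ± 0.19 SE (adjusted p = 0.00121). Tlr2 fell in both genotypes, by more in KO, with WT means of 3302 with IL-4, against 6331 unstimulated (difference -1.04 ± 0.11 SE). Slc7a2 rose more in KO, and passed in 18 of the 19 alternatives (difference 1.23 ± 0.15 SE). It reached similar levels with IL-4 in both genotypes and started lower in KO, with WT means of 4411 with IL-4, against 701 unstimulated. Klf4 (1.74 ± 0.27 SE) and Retnla (1.75 ± 0.27 SE) rose more in KO, in 13 of 18 and 10 of 19 alternatives.

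**Figure D5:**
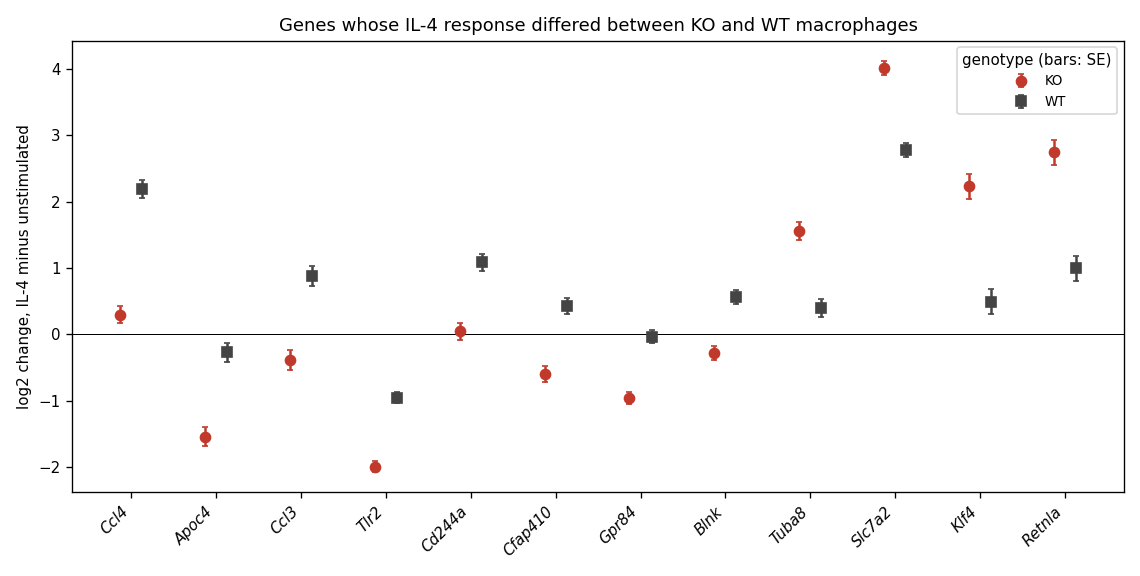
Log2 change with IL-4 (IL-4 minus unstimulated, bars are SE of the fit of 2 arrays a group) in KO (red circles, left) and WT (grey squares, right) for the 12 genes whose responses differed, ordered by the difference. The change is lower in KO for the 8 genes from Ccl4 to Blnk and higher in KO for the 4 from Tuba8 to Retnla.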

How the data were processed

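Total RNA was hybridised to Illumina mouse bead arrays, 1 array per sample. The deposited values are normalized probe intensities, and the submitters' processing notes name GenomeStudio. Sorted values of the 8 columns differ by at most 0.57 units, as after quantile normalization, and the lowest lie at 78.4 to 78.9, so background was not subtracted; both points come from the values. The 16 columns of a table of non-normalized signals, whose headings match no sample label, were not used. The planned detection p-values came from that table, so a probe counted as above background past 1.645 standard deviations over the mode of low values on its array (93.2 to 93.3 units). Intensities were corrected with normexp (offset 16) and taken to log2. A probe was kept if it passed on each array of some group (14417 probes), and each gene was represented by its brightest probe. Of 25697 probes, 23978 have 1 gene symbol in GEO's platform annotation, 0 several and 1719 none given here. Group means over all 8 arrays were fitted with limma 3.58.1 in R 4.3.3 (eBayes with a trend), which was tested on simulated data. The number of arrays limits the precision.

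Named genes are Fcer1g, the 20 called genes with the largest changes in each direction, all alternative activation genes, and up to 6 called and 2 bright uncalled members of each of 73 lists. Of these, 1 gene is not reported here. The lists and their members were chosen with earlier results of these data known, and many lists share members. Motifs were searched in RefSeq promoter windows of GRCm38.p6. Figures were drawn with matplotlib 3.10.9.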

Additional observations from a re-analysis of the deposited data

Results flagged for a closer look

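For 12 genes the change with IL-4 in KO differed from that in WT by the limma test of the difference itself, and the values are given here without an explanation. Each gene has 2 arrays in each of 4 groups. For Ccl4, the difference was log2 -1.89 ± 0.19 SE (adjusted p = 0.00121), passed in 19 of 19 alternatives. Ccl3, a chemokine, read 265 and 271 with IL-4 in KO, against 359 and 304 unstimulated, and averaged 577 with IL-4 and 344 unstimulated in WT; the difference was log2 -1.26 ± 0.21 SE (adjusted p = 0.039), passed in 10 of 19. Cd244a, a receptor of the SLAM family, read 93.9 and 96.9 with IL-4 in KO, against 94.0 and 94.9 unstimulated, and averaged 158 with IL-4 and 109 unstimulated in WT; the difference was log2 -1.04 ± 0.18 SE (adjusted p = 0.0447), passed in 10 of 19. Blnk, an adaptor of B cell receptor signalling, read 389 and 368 with IL-4 in KO, against 438 and 452 unstimulated, and averaged 463 with IL-4 and 334 unstimulated in WT; the difference was log2 -0.84 ± 0.15 SE (adjusted p = 0.0482), passed in 9 of 19. Each of these 4 genes rose in WT (adjusted p under 0.05) and did not pass in KO. Cfap410, a cilium protein, read 131 and 131 with IL-4 in KO, against 161 and 169 unstimulated, and averaged 287 with IL-4 and 231 unstimulated in WT; the difference was log2 -1.02 ± 0.17 SE (adjusted p = 0.039), passed in 10 of 19. Gpr84, a fatty acid receptor, read 999.7 and 1185 with IL-4 in KO, against 2027 and 2080.3 unstimulated, and averaged 5160.1 with IL-4 and 5274 unstimulated in WT; the difference was log2 -0.93 ± 0.14 SE (adjusted p = 0.0267), passed in 12 of 19. For Tlr2, the difference was log2 -1.04 ± 0.11 SE (adjusted p = 0.00234), passed in 19 of 19 alternatives. Apoc4, an apolipoprotein, read 92.3 and 88.9 with IL-4 in KO, against 135 and 143 unstimulated, and averaged 89.2 with IL-4 and 94.3 unstimulated in WT; the difference was log2 -1.28 ± 0.20 SE (adjusted p = 0.035), passed in 11 of 18. For Slc7a2, the difference was log2 1.23 ± 0.15 SE (adjusted p = 0.00456), passed in 18 of 19 alternatives. For Klf4, the difference was log2 1.74 ± 0.27 SE (adjusted p = 0.0327), passed in 13 of 18 alternatives. For Retnla, the difference was log2 1.75 ± 0.27 SE (adjusted p = 0.0327), passed in 10 of 19 alternatives. Tuba8, an alpha tubulin, read 131 and 126 with IL-4 in KO, against 85.2 and 88.8 unstimulated, and averaged 101 with IL-4 and 92.4 unstimulated in WT; the difference was log2 1.15 ± 0.19 SE (adjusted p = 0.039), passed in 10 of 18. Tuba8 in KO unstimulated, Apoc4 in KO with IL-4 and in WT with IL-4, and Klf4 in WT unstimulated were under background on both arrays, and Klf4 also on 1 KO unstimulated array, so their differences depend on the background correction. Cd244a lay only just above the background threshold (93.2 to 93.3 units) on every KO array. A change with IL-4 in KO could hardly be measured for it, and a lost response cannot be told from a gene barely detected in KO.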

How the results depend on the processing

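Of the 340 named genes past the threshold in KO, 211 passed in every one of the 20 alternatives and 0 turned direction; 115 were lost in at least 1, 14 passed in all that measured them but were not measured in every one, and 30 of the 146 that had not passed did so in at least 1. Leaving out 1 array gave 1128 to 1884 called genes in KO, 3 to 10 differences between KO and WT and 341 to 507 called list members, against 1897, 12 and 512. DNA replication genes called higher ran from 7 to 13 on leaving out 1 array. Other settings gave 1728 to 2487 called genes. The differences between KO and WT numbered 19 with no background correction, 19 with no filter on dim probes and 4 with probes above background on all 4 KO arrays. With no background correction the same 9847 genes were tested, while the filters changed the set of genes to 16593 and 8079. The cause of these counts was not tested. With 2 arrays a group, leaving out 1 leaves a lone array that is assumed to vary like the others.

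Replicate numbers are shared between groups. Deviations of arrays with the same number from their group means correlated over genes at r = 0.23 in KO and 0.15 in WT. Between KO and WT the values were -0.03 with IL-4 and 0.006 unstimulated. With 2 arrays a group the 2 deviations of a gene mirror each other, so each r stands for 1 pair. Whether arrays with the same number shared a preparation was not tested. With the replicate number as a block, 1952 genes, 16 differences and 527 list members were called, and with a block within genotype 2487 genes, 90 differences and 650 list members. A filter on probes above background in KO, added after seeing the data, gave 1927 genes. Without background correction, 65 called genes moved by more than 1.5-fold, and log2 changes of called genes were a median of 0.783 times those with it, since dim genes carry more background. Of 647 called genes with several probes, 70 had probes that differed in sign.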
